A study of Mus musculus with 4 samples.

Results

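The mRNAs of the semaphorin, plexin, neuropilin, ephrin, Eph, Slit and Robo families were examined in the brain of newborn mice whose mothers had received titanium dioxide nanoparticles during pregnancy. Members were taken by gene symbol (semaphorins of classes 3 to 7, plexins A to D, both neuropilins, A and B type Eph receptors and ephrins, Slit1 to Slit3 and Robo1 to Robo4) among the genes that RefSeq accessions name on the array. This gave 61 of 20660 genes, carried by 77 probes, and 60 of them code for proteins. C57BL/6J dams received 25 µL into the trachea on gestational day 10.5 by the protocol, while the sample descriptions name day 14. The TiO2-H dams received 100 µg of titanium dioxide nanoparticles per mouse and the Sham dams the vehicle without the particles. Whole brain RNA was taken at postnatal day 1, and each pool combined 2 pups from every litter, which came from 5 Sham or 6 TiO2-H dams. There was 1 pool, and 1 array, for males and for females of either exposure. The pools hide the spread between litters, so that errors below rest on the 2 arrays of each group. In whole brain RNA, fewer cells of a type and less RNA per cell cannot be told apart.

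These families are the classical guidance cues of growing axons. Semaphorins act through plexins, and the secreted class 3 semaphorins mostly need a neuropilin as co-receptor. Ephrins are held on the membrane and bind Eph receptor tyrosine kinases on a neighboring cell, with signals running both ways, and secreted Slits repel axons that carry Robo receptors, for example at the midline. In the newborn brain the same genes also act in cell migration, in the forming of tracts and synapses and in the growth of vessels.

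Values are given as scaled signal, the spot brightness after setting the 75th percentile of every array to 835, and differences as log2 fold change, TiO2-H minus Sham, with the standard error (SE). Signals of different probes are not compared with each other, since probes bind with different strength. Between 56.2% and 61.2% of spots were well above background, with the higher shares on the TiO2-H arrays. Both Sham arrays lay in one row of the slide and both TiO2-H arrays in the other, so that exposure and slide row cannot be told apart. Sex-linked mRNAs went against the sex labels of the TiO2-H arrays. Scaled signal of Xist, expressed from the inactive X chromosome, was 334 on the array labelled male and 5.14 on that labelled female. On the Sham arrays it was 18.5 (male) and 289 (female). The Y-linked Eif2s3y gave 3628 on Sham male, 441 on Sham female, 6.17 on the array labelled TiO2-H male and 4168 on that labelled female. Ddx3y, also Y-linked, gave 1461, 150, 6.92 and 1711 in the same order. The Sham female array thus held Y-linked signal too, and the cause was not tested. The comparison of both TiO2-H with both Sham arrays does not use these labels. The neuronal markers (Tubb3, Map2, Stmn2, Dcx, Snap25, Gap43 and Syt1) were well above background on all 4 arrays. Of the members, 58 were well above background on all 4 arrays. Sema3d and Sema3g reached this level on the TiO2-H arrays and on no Sham array, and Plxna4os1, a noncoding RNA gene, on none. The 60 members other than Plxna4os1 were tested.

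Promoter windows are shown for 4 members that are described below, Robo1, Plxnc1 and Sema3e, whose mRNAs had higher signals on both TiO2-H arrays, and Sema4c, whose signals were lower. They were chosen after the values were seen. The sequences are those of RefSeq (GRCm38.p6), from 250 bases before to 50 bases after the start of the gene, on its strand. Robo1 is at chr16:72662899-72663198 on the plus strand, Plxnc1 at chr10:94944796-94945095 on the minus strand, Sema3e at chr5:14025026-14025325 on the plus strand and Sema4c, the first of 2 windows, at chr1:36558332-36558631 on the minus strand. Capitals mark matches on either strand to the GC box (GGGCGG) and the E box (CACGTG).
Robo1: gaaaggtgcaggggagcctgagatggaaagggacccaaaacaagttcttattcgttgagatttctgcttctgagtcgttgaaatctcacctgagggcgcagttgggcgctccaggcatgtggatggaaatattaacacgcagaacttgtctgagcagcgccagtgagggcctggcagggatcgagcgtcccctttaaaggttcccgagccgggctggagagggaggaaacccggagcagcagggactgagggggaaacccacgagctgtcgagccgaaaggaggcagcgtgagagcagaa
Plxnc1: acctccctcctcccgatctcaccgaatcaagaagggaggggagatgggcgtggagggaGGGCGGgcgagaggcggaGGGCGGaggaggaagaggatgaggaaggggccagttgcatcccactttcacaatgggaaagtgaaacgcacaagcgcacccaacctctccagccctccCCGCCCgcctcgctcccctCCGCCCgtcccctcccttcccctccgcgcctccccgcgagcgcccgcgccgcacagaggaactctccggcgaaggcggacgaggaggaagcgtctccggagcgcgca
Sema3e: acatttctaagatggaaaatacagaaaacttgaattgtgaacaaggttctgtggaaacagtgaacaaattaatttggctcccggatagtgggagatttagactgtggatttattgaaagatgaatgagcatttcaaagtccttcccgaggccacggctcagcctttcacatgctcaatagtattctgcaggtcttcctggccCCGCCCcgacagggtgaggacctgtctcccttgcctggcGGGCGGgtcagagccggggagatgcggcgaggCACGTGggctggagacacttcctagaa
Sema4c: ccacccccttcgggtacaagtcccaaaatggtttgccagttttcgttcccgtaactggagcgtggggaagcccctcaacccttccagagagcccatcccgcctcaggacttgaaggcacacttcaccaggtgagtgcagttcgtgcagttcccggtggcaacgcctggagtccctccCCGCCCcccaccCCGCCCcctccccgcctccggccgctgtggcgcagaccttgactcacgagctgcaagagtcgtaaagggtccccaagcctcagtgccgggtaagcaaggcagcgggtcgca
The Robo1 window held neither motif, and none of the 4 held a TATA box (TATAAA). The CpG dinucleotides numbered 15 in the Robo1 window, 30 in Plxnc1, 11 in Sema3e and 19 in Sema4c. Over the 53 tested members with a window, 73.6% held a GC box, against 35.9% of 27025 promoters. These promoters are those of all genes with a window, not limited to genes tested here, so that the 2 sets are unlike. A TATA box was found in 3.77% of members against 14.2% of all promoters, and an E box in 7.55% against 7.24%. Members had a median of 21 CpG dinucleotides per window and all genes 7. A GC box was found in 66.7% of the windows of members with higher signals on both TiO2-H arrays (21 windows) and in 7 of 8 windows of members with lower signals, so that this feature was common in both.

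Comparing both TiO2-H arrays with both Sham arrays asks whether maternal exposure altered guidance mRNAs in the offspring. No member passed an adjusted p of 0.05 in limma, and neither did any other gene (0% of 16163). At an unadjusted p under 0.05 there were 15 members (17.4% of all genes were called), of which 13 had higher signals after exposure (10.4% of all genes did) and 2, Sema4c and Efna3, had lower signals (7% of all genes did). The lowest adjusted p among members was 0.257, which was also the lowest over all genes. An exact permutation test of 2 against 2 arrays cannot go below p = 0.333 (two-sided), so that groups of arrays that do not overlap are given as a description. Both TiO2-H arrays lay above both Sham arrays for 26 members, or 43.3%, and for 28.5% of all genes. Both lay below for 9 members, or 15%, and for 27.1% of all genes. The values of the other 25 members overlapped. Without scaling between arrays these counts were 47 and 1, against 61.3% and 6.34% of all genes, because the TiO2-H arrays were brighter as a whole by a median of 0.11 on the log2 scale. Directions below are therefore relative to all genes, and negative log2 fold changes smaller in size than this shift turned positive without scaling where this was computed. Sema3d is among the 26, and also among the 15 and the 13, having entered the test through its TiO2-H arrays alone. Over the 58 members well above background on all arrays, 25 lay above and 9 below.

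The differences were small. The median log2 fold change of members was 0.067, against 0.0043 for all genes, and 41 of 60 members (68.3%) had a positive value, against 51.4% of all genes. The 41 include Sema3d and Sema3g, which entered the test through their TiO2-H arrays alone. Receptors and ligands differed in these counts. Of 29 plexins, neuropilins, Eph receptors and Robos, 14 had higher and 2 had lower signals on both TiO2-H arrays, with a median log2 fold change of 0.12. Of 31 semaphorins, ephrins and Slits, 12 (with Sema3d among them) had higher and 7 lower signals, with a median of 0.039. Higher and lower shares were 48.3% and 6.9% for receptors and 38.7% and 22.6% for ligands, against 28.5% and 27.1% of all genes. No test was made of the difference between receptors and ligands.

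**Figure D1:**
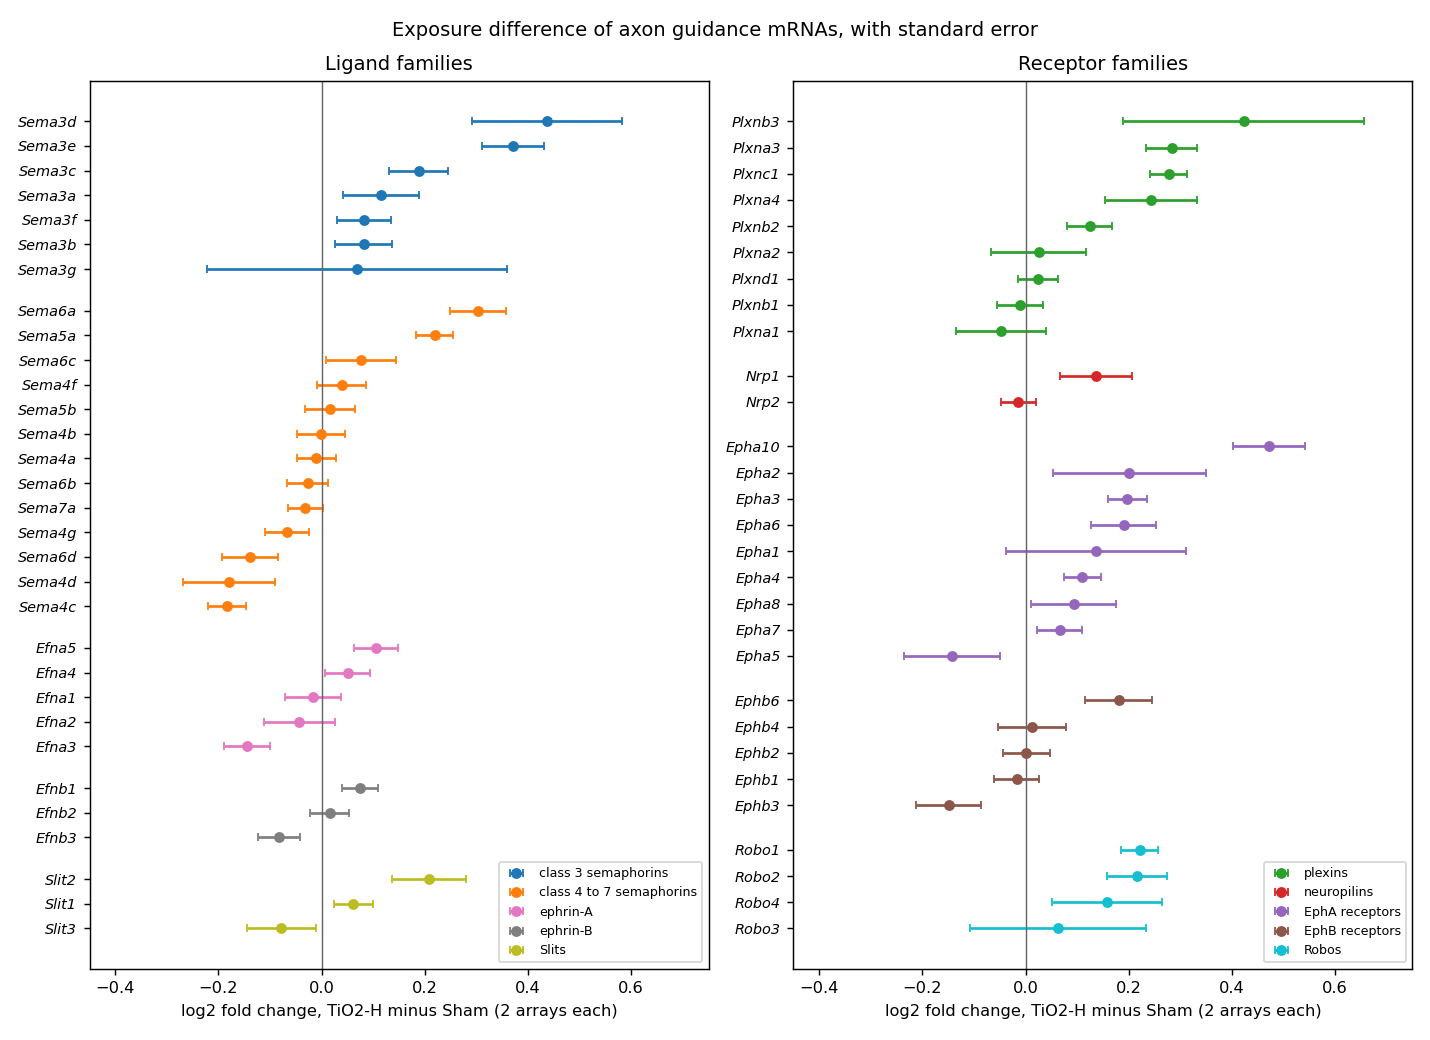
Log2 fold change (TiO2-H minus Sham, 2 arrays each, horizontal axis) of the 60 tested members, with bars for the SE, colored by family and split into ligands (left) and receptors (right). Class 3 semaphorins and Robos all lie to the right of 0, with the SE of Sema3g and Robo3 crossing it, while semaphorins of classes 4 to 7 reach from -0.18 (Sema4c) to 0.30 (Sema6a).

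All 4 Robo receptors had a positive log2 fold change, with a median of 0.19. Robo1, which binds Slits on commissural and cortical axons, gave 4355 and 4453 on the Sham arrays (male, then female, as in all pairs below) and 5116 and 5151 on the TiO2-H arrays. The groups did not overlap, with a log2 fold change of 0.22 ± 0.036 (SE, n = 2 arrays per group, adjusted p = 0.257). Robo2, a partner receptor with overlapping function, gave 2813 and 2769 on the Sham arrays and 3109 and 3380 on the TiO2-H arrays. Its log2 fold change was 0.22 ± 0.058, and a further probe of Robo2 gave 0.20. Robo4, best known from endothelial cells, had a log2 fold change of 0.16 ± 0.11, and its arrays overlapped, with 840 and 928 in Sham and 912 and 1065 in TiO2-H. Robo3, which lets commissural axons cross the midline, had 160 and 124 in Sham and 160 and 135 in TiO2-H, with the higher value on the array labelled male in both groups.

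Of their ligands, Slit2 gave scaled signals of 398 and 439 on the Sham arrays and 469 and 497 on the TiO2-H arrays. The groups did not overlap, and the log2 fold change was 0.21 ± 0.071 (adjusted p = 0.289), and 0.13 with normexp. Slit1, the Slit most restricted to the nervous system, lay at 3730 and 3776 in Sham and 3864 and 3971 in TiO2-H, with a log2 fold change of 0.062 ± 0.037. Slit3 was the one Slit with a negative value, -0.078 ± 0.067 (0.036 without scaling), and its arrays overlapped (189 and 184 against 186 and 168).

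The secreted class 3 semaphorins all had a positive log2 fold change, with a median of 0.12. Of the 7, 5 had higher and 0 lower signals on both TiO2-H arrays (28.5% and 27.1% of all genes did). Sema3d, among these 5, and Sema3g entered the test through their TiO2-H arrays alone. Sema3e, which signals through Plxnd1 in axons and vessels, gave 123 and 130 in Sham and 157 and 170 in TiO2-H. Its log2 fold change of 0.37 ± 0.060 (1.29-fold, adjusted p = 0.257) was the highest of this class among members well above background on all 4 arrays. Its receptor Plxnd1 had overlapping arrays and a log2 fold change of 0.024 ± 0.0385. Sema3c, which guides cortical and vascular cells, had 2038 and 2049 in Sham and 2233 and 2428 in TiO2-H, a log2 fold change of 0.19 ± 0.057, and its further probe gave 0.27. Sema3a, the prototype axon repellent, had a log2 fold change of 0.12 ± 0.074, but the arrays overlapped (1146 and 1234 against 1230 and 1349). Sema3f and Sema3b, both ligands of Nrp2, had 0.082 each. Sema3d was too dim to measure in Sham (28.2 and 38.1, neither well above background) and gave 50.9 and 43 on the TiO2-H arrays. The difference of 1.35-fold rests on Sham values near background. Its log2 fold change of 0.44 was 0.35 with quantile normalization and 0.11 with normexp. Sema3g, which acts mainly through Nrp2, was likewise dim and overlapped, with 40.3 and 31.15 in Sham and 49.1 and 30.0 in TiO2-H.

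The neuropilins, co-receptors for class 3 semaphorins and for VEGF, gave unlike values. Nrp1 gave 435 and 416 in Sham and 444 and 492 in TiO2-H, a log2 fold change of 0.14 ± 0.069. Nrp2 gave 12100 and 12209 in Sham and 12006 and 12065 in TiO2-H, which do not overlap. They differ by a log2 fold change of -0.014 ± 0.034, smaller than its moderated SE (0.10 without scaling). The 2 Sham arrays differed by 0.013 on the log2 scale and the 2 TiO2-H arrays by 0.0072. A probe for another Nrp2 accession had 864 and 851 in Sham and 998 and 1027 in TiO2-H, a log2 fold change of 0.24, so that the 2 probes of Nrp2 disagree.

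Of the 9 plexins, 5 had higher signals on both TiO2-H arrays and none had lower (28.5% and 27.1% of all genes did). Plxnc1, the receptor of Sema7a, showed the lowest unadjusted p of any member (0.00265) in limma, with 2028 and 2072 in Sham and 2483 and 2487 in TiO2-H. Its log2 fold change was 0.28 ± 0.036 (1.21-fold, adjusted p = 0.257), and its further probe gave 0.32. The ligand, Sema7a, was lower on both TiO2-H arrays by a log2 fold change of -0.031 ± 0.035. Plxna3, a partner of the neuropilins, gave 2494 and 2466 in Sham and 2919 and 3120 in TiO2-H, a log2 fold change of 0.28 ± 0.050. Plxna4 had 5304 and 6151 in Sham and 6666 and 6861 in TiO2-H, 0.24 ± 0.090, but a dimmer probe of the gene gave -0.14. Plxnb3 had 125 and 82.3 in Sham and 139 and 133 in TiO2-H, a log2 fold change of 0.42 ± 0.23, with the Sham female value well below the other 3. It was 0.12 without the Sham female array and 0.72 without the Sham male array. Plxnb2, a receptor of class 4 semaphorins in neural progenitors, had 0.12 ± 0.0435, while Plxna1, Plxna2 and Plxnb1 overlapped, with log2 fold changes from -0.048 to 0.025.

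Semaphorins of classes 4 to 7, most of them membrane bound, went in both directions, with a median of -0.010. On both TiO2-H arrays, 2 of these 13 were higher and 5 lower (28.5% and 27.1% of all genes were). Sema6a, a ligand of plexins A2 and A4, gave 1401 and 1469 in Sham and 1825 and 1716 in TiO2-H, a log2 fold change of 0.30 ± 0.054 (1.23-fold, adjusted p = 0.257). Sema5a, a bifunctional cue, gave 1615 and 1601 in Sham and 1893 and 1851 in TiO2-H, 0.22 ± 0.036. Sema4c, a ligand of Plxnb2, lay in the opposite direction with 22968 and 22291 in Sham and 19917 and 19924 in TiO2-H. Its log2 fold change of -0.18 ± 0.037 (0.88-fold, adjusted p = 0.257) was the lowest of all members. Sema4d, the ligand of Plxnb1, had 696 and 798 in Sham and 637 and 680.5 in TiO2-H, a difference of -0.18 ± 0.090. Sema6d gave -0.14 ± 0.055, but its dimmer probe gave 0.17. Sema4g and Sema7a completed the members with lower signals on both TiO2-H arrays.

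**Figure D2:**
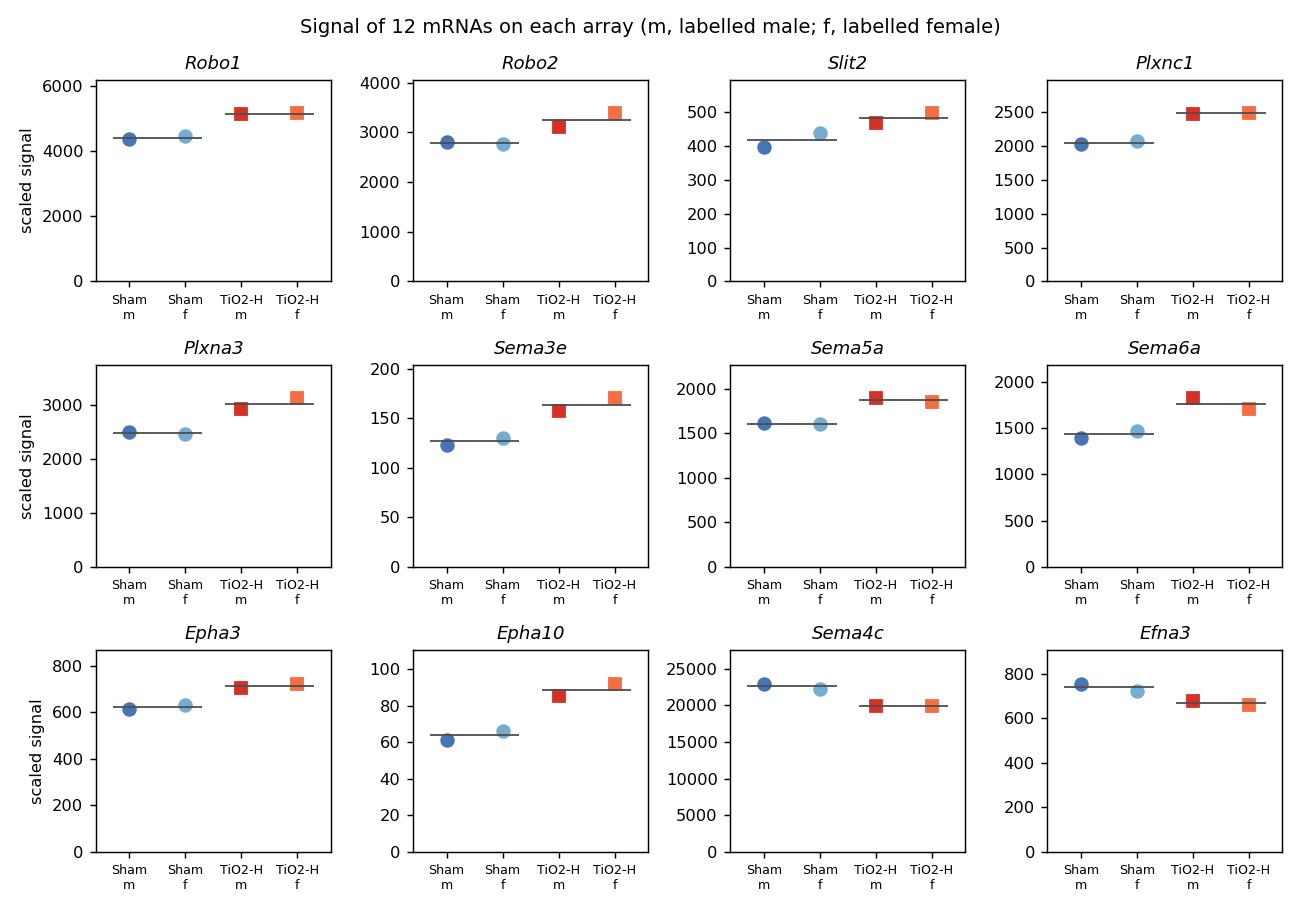
Scaled signal (linear axis from 0, in units of spot brightness) of 12 members on each of the 4 arrays, with the geometric mean of each group as a line. All 12 come from the members whose groups do not overlap, with TiO2-H above Sham in 10 panels and below for Sema4c and Efna3. Of the 60 tested members, 26 lay above, 9 below and 25 overlapped.

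Of the 9 EphA receptors, 5 had higher and none had lower signals on both TiO2-H arrays (28.5% and 27.1% of all genes did). Their median log2 fold change was 0.14. Epha10, an Eph receptor without kinase activity, had the highest value of all members, with 61.3 and 66.3 in Sham and 85.0 and 92.0 in TiO2-H, a log2 fold change of 0.47 ± 0.070 (1.39-fold, adjusted p = 0.257). With background correction by normexp in place of the processed signal, its log2 fold change was 0.039 (adjusted p = 0.63). Epha3 gave 616 and 630 in Sham and 706 and 724 in TiO2-H, 0.20 ± 0.038. Epha4, which binds ephrins of both classes, had 2032 and 1985 in Sham and 2174 and 2162 in TiO2-H, 0.11 ± 0.036, and Epha6 0.19 ± 0.063. Epha5, a receptor of topographic maps, was the exception with -0.14 ± 0.093, overlapping arrays, and a further probe at 0.16.

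The EphB receptors were centered on 0, with a median log2 fold change of 0.0011. Ephb6, which also has no kinase activity, gave 5441 and 5045 in Sham and 5738 and 6144 in TiO2-H, 0.18 ± 0.065, but its dimmer probe gave -0.45. Ephb3 was lower on both TiO2-H arrays (17198 and 16170 against 15615 and 14489), with -0.15 ± 0.063. Ephb1, Ephb2 and Ephb4 overlapped.

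Among the ephrins, Efna3 gave 756 and 723 in Sham and 679 and 659 in TiO2-H, a log2 fold change of -0.14 ± 0.045 (adjusted p = 0.274), and its further probe gave -0.10. Efna5, the graded ligand of retinal and cortical maps, lay above in TiO2-H (3040 and 2906 against 3228 and 3167), with 0.11 ± 0.043. Efna4 had 0.050 and Efna1 and Efna2 overlapped. Of the transmembrane B ephrins, Efnb1 had 0.074 ± 0.035, Efnb3 had -0.082 ± 0.041 (0.033 without scaling), and Efnb2, an arterial and neuronal ligand, overlapped.

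By position in the RefSeq gene table, 7 members lie on each of chromosomes 5 and 9. On chromosome 9, 2 members had higher and 1 had lower signals on both TiO2-H arrays (28.4% and 26.9% of its tested genes did). Of 6 members on chromosome 6, 2 had higher and 0 lower signals (27.3% and 26.0% of its genes). On chromosome 5, Sema3c, Sema3d, Sema3e and Slit2 had higher and 0 had lower signals on both TiO2-H arrays (29.3% and 29.7% of its tested genes did), Sema3d having entered the test through its TiO2-H arrays alone. Of 6 members on chromosome 16, Epha3, Epha6, Robo1 and Robo2 had higher signals and Ephb3 lower ones (32.7% and 24.8% of its genes). The 3 members on the X chromosome, Efnb1, Plxna3 and Plxnb3, had higher signals, as did 34.4% of its genes. These counts are small and were not tested. With all genes divided into 5 equal bins of mean signal, the bins from dimmest to brightest held 6, 10, 13, 18 and 13 members. Lower signals were found for 0, 0, 2, 2 and 5 of them, against 22.5%, 18.7%, 26.8%, 31.3% and 35.9% of the genes in each bin. Higher signals were found for 3, 6, 3, 11 and 3 of them, against 20.3%, 32.5%, 32.4%, 31.25% and 26.1%. Sema3d is among those with higher signals in the dimmest bin.

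The probes for a gene did not always give the same direction. For 15 members more than 1 probe was measured, and 8 of the 16 further probes had the same sign as the probe that stood for the gene. The median difference between them was 0.12 on the log2 scale. Members with probes of opposite sign and over 0.2 apart were Epha5, Ephb6, Nrp2, Plxna4, Sema5b and Sema6d. The dimmer probes of Ephb6, Plxna4 and Sema6d lay at scaled signals under 100 on every array.

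**Figure D3:**
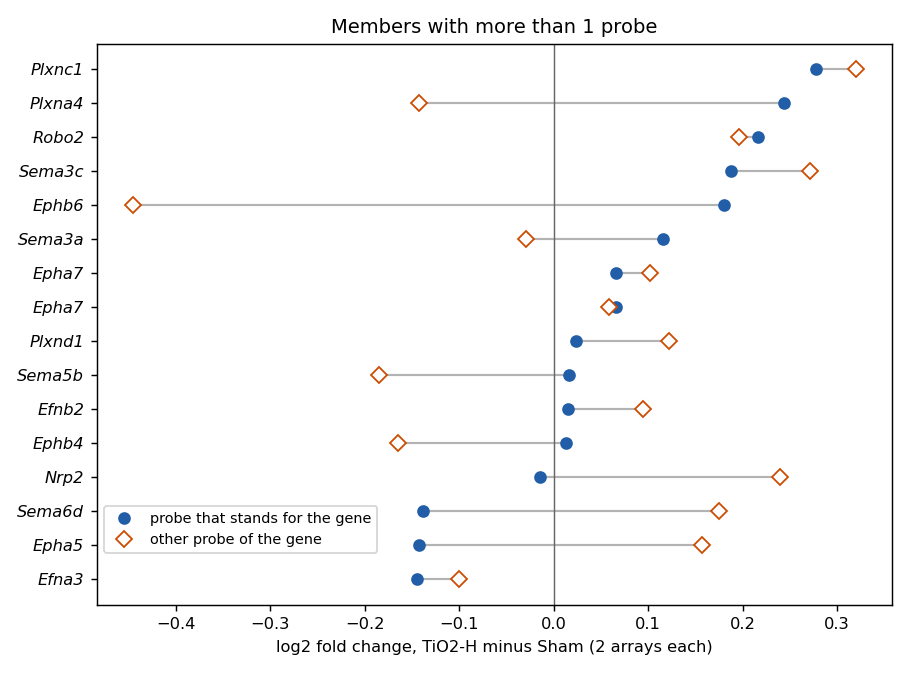
Log2 fold change (TiO2-H minus Sham, horizontal axis) of the probe that stands for each member (filled) and of each further probe (open) for 15 members, with a line joining the pair. The largest gap is that of Ephb6 (0.18 against -0.45), while both Plxnc1 probes lie near 0.3.

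The same members were compared within each labelled sex, with 1 array a side and no test. These are 4 different arrays, so that the pairs share no control. However, the labels within TiO2-H are in doubt and the Sham female array held Y-linked signal. Of 58 members well above background on all arrays, 46 (79.3%) had the same sign in both pairs, against 69.2% of 14634 genes. They were higher in both for 33 members (56.9%, against 36.4% of all genes), lower in both for 13 (22.4%, against 32.7%) and opposite for 12. The log2 fold changes of the pairs correlated across members with a Pearson r of 0.69 and a Spearman coefficient of 0.72, against 0.27 and 0.46 over all genes. These are descriptions across genes that share arrays and slide rows. At the thresholds of the study, 1.5-fold and 0.67-fold, the male pair held 1 member at or above (2.06% of all genes were) and 0 at or below (1.83%), and the female pair 1 (1.58%) and 0 (1.97%). The member in the male pair was Sema3d, 1.62-fold higher over a Sham value not well above background. That in the female pair was Plxnb3, 1.61-fold higher. Between the Sham arrays, female over male, 0 members were at or above 1.5-fold (1.84% of all genes were) and 1, Plxnb3 at 0.658-fold, was at or below 0.67-fold (1.75%). Between the TiO2-H arrays, labelled female over male, 0 were at or above (1.3%) and 1, Sema3g at 0.612-fold, was at or below (2.29%).

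**Figure D4:**
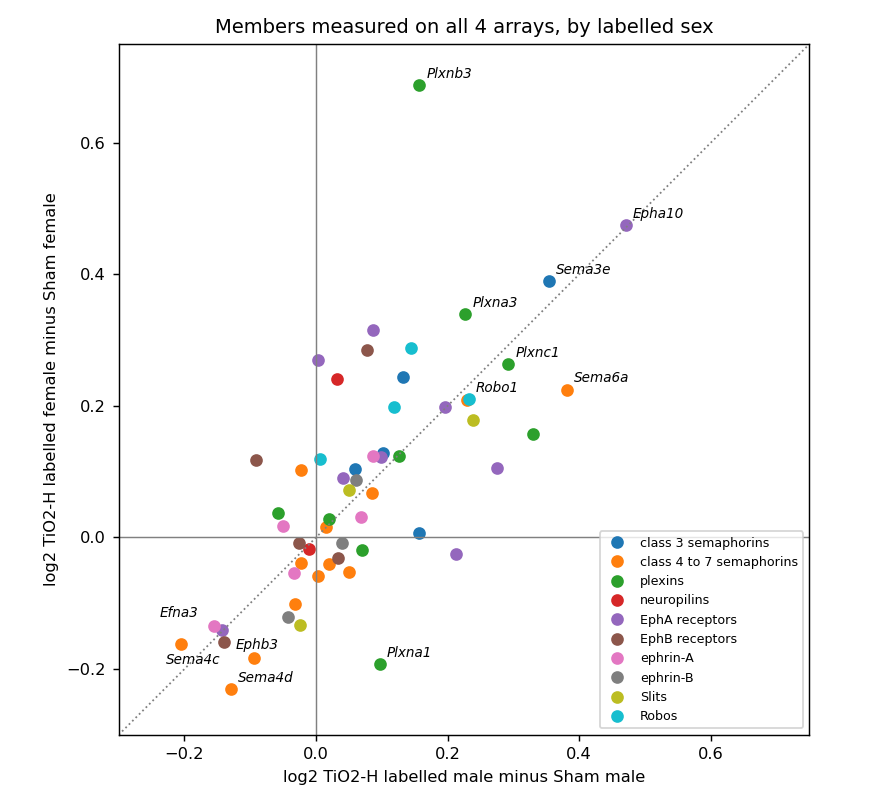
Log2 fold change of the 58 members well above background on all 4 arrays, in the array labelled male (horizontal axis) and labelled female (vertical axis) against the Sham array of that label, colored by family, with the line of equal values dotted. Of these, 33 lie in the upper right, 13 in the lower left, and Plxnb3 and Plxna1 lie farthest from the line.

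The co-receptors and effectors of these pathways (a list of 65 genes with adhesion molecules, collapsin response mediators, GTPase regulators and cytoskeletal kinases) were also examined. Of 64 tested, 27 had higher and 18 lower signals on both TiO2-H arrays, against 28.5% and 27.1% of all genes. At an unadjusted p under 0.05 there were 9 higher and 2 lower, against 10.4% and 7% of all genes, with none below an adjusted p of 0.05 in limma and a median of 0.033. Among genes well above background on all 4 arrays, the largest positive log2 fold changes were those of Mical2, an oxidase that acts on actin (0.74 ± 0.39, with 259 on the array labelled TiO2-H female and 102 to 132 on the others), and Kalrn, a guanine nucleotide exchange factor (0.31 ± 0.040). The lowest of the same genes were those of Crmp1, a collapsin response mediator (-0.21 ± 0.095), and Srgap2, a Slit-Robo effector (-0.21 ± 0.11). The lowest of the 64 was Timd2, a receptor of Sema4a, at -0.84 ± 0.42, but the Sham female array alone measured it above background.

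Markers of cell types differed between the exposure groups, and their part in the results above was not tested. The counts below stand beside 28.5% of all genes that were higher and 27.1% that were lower on both TiO2-H arrays. Neuronal markers were higher on both TiO2-H arrays in 4 and lower in 1 of 7 genes, with a median log2 fold change of 0.12 and sums of 417669 to 420580 in Sham and 423147 to 435196 in TiO2-H. Markers of the oligodendrocyte lineage were higher in 3 and lower in 0 of 5, with a median of 0.11 and sums of 11115 to 11211 against 12087 to 12369. Those of radial glia and astrocytes were higher in 4 and lower in 1 of 6, with a median of 0.049 and overlapping sums (192809 to 199947 against 199158 to 205501). The markers of meninges and mesenchyme were higher on both TiO2-H arrays in 6 of 6 genes, with a summed scaled signal of 19918 to 20297 in Sham and 21372 to 21793 in TiO2-H. Erythroid markers were lower in 3 of 4 genes, with sums of 61320 to 64025 against 52809 to 53029. Microglial markers were higher in 4 and lower in 1 of 5, with sums of 10717 to 11036 against 11685 to 11827. Endothelial markers, which bear on Robo4 and Plxnd1, were higher in 3 and lower in 1 of 6, with overlapping sums (18109 to 19080 against 18442 to 19029). Choroid plexus markers were higher in 1 and lower in 1 of 4, with sums of 70719 to 72699 against 68649 to 69659. Pituitary markers overlapped in the 2 genes tested. Their sums were 617 and 623 in Sham, 1250 on the array labelled TiO2-H male and 582 on that labelled female. Of these, Gh (growth hormone) gave 290 on the array labelled TiO2-H male and 4.57 to 11.5 on the others.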

How the data were processed

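Brain RNA of newborn mice was measured on 4 one-color Agilent arrays, 1 pool each. The authors deposited scanner output as intensity, made with Feature Extraction (10.10.1.1), which subtracts background within an array; the deposited intensity table equals the processed signal for all 59305 non-control spots. Values were taken as log2 processed signal minus the log2 75th percentile of the array, leaving out outlier spots (138 to 181 per array). A spot not well above background took the lowest well-measured signal of its array (23.3 to 31.7, unscaled) where its own was smaller. The probe with the highest mean log2 signal was used for a gene. Of 22765 RefSeq accessions, 94.3% were named with a GRCm38.p6 gene table.

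Both TiO2-H arrays were tested against both Sham arrays over 16163 genes by limma (version 3.58.1, R 4.3.3), p-values were adjusted by Benjamini-Hochberg, and sex was not a term. The number of arrays limits the precision. Single probes spotted 10 times varied by a median SD of 0.062 to 0.067 (log2) where well above background and 0.18 to 0.35 where not. The steps ran in Python 3.11.15 with pandas 2.3.3 and numpy 2.4.6 and were tested on simulated data. Named members were those with the highest and lowest change in each family, the 6 highest and lowest of all, the 10 lowest p, those past 1.5-fold or 0.67-fold, all Slits, Robos and neuropilins, and those with disagreeing probes; others were named to complete families, after their values were seen. The members, lists and tests were chosen with earlier results of these data known. Alternatives were other scalings, background corrections, filters, probes and covariates, and each array left out. The DNA methylation measurements of the study were not analysed here.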

Additional observations from a re-analysis of the deposited data

How the results depend on the processing

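No adjusted p under 0.05 was found for a member under any alternative, with the lowest at 0.0915 (eBayes with an intensity trend). The labels carry no replicate numbers, so that the labelled sex was the one block available for a paired fit. With it as a block, 11 members had an unadjusted p under 0.05 in limma (12.7% of all genes did). With the sexes crossed within TiO2-H there were 12 (11.6% of all genes), and 0 passed the adjusted threshold in either fit. Of 543 values of the 32 named members under 17 alternatives, 526 kept their direction, and 23 members kept it in each. The sex covariates, the intensity trend and the deposited table cannot change a log2 fold change here, so that the 526 include values that could not differ. The filters and the keeping of outlier spots also left the values of these members unchanged. Without scaling, Efnb3 (0.033), Nrp2 (0.10), Plxna1 (0.067) and Slit3 (0.036) were positive, and 2 members were at or above 1.5-fold in the female pair. In the same setting, 28 members had an unadjusted p under 0.05 in limma (31.5% of all genes did). Both TiO2-H arrays then lay above both Sham arrays for 47 members and below for 1 (61.3% and 6.34% of all genes). With normexp, Nrp2 was 0.0034 and Sema5b -0.069, and the values of Epha10 (0.039), Sema3d (0.11), Slit2 (0.13), Slit3 (-0.022), Nrp1 (0.24), Robo3 (0.11) and Plxna1 (-0.13) changed by over 1.5 times. With the mean of probes, Epha5 was 0.0072, Ephb6 -0.13, Nrp2 0.11, Sema5b -0.084 and Sema6d 0.018. The male pair held 0 members at or above 1.5-fold under quantile normalization, normexp or the filter on every array, the female pair 0 under normexp, and both 0 at 2-fold.

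Leaving out 1 array at a time, 8 to 13 members had an unadjusted p under 0.05 (8 without the array labelled TiO2-H female, 9 without the Sham male array), 30 to 36 lay above and 11 to 16 below (16 without the array labelled TiO2-H male, 15 without the Sham male array). With a lone array in a group, its spread is assumed to be that of the other group. Robo3 ranged from -0.12 to 0.24, Plxna1 from -0.14 to 0.043 and Sema5b from -0.016 to 0.048. Wide ranges of one sign were those of Plxnb3 (0.12 to 0.72), Robo4 (0.047 to 0.27), Slit3 (-0.15 to -0.0049), Slit2 (0.14 to 0.28), Sema4d (-0.28 to -0.082), Sema3b (0.028 to 0.14), Nrp1 (0.063 to 0.21), Plxna4 (0.14 to 0.35) and Epha5 (-0.22 to -0.061). Family medians minus that of all genes ranged from 0.13 to 0.18 for class 3 semaphorins, -0.046 to 0.0052 for classes 4 to 7, 0.022 to 0.10 for neuropilins, 0.11 to 0.21 for EphA, -0.046 to 0.0091 for EphB, -0.071 to 0.033 for ephrin-A, -0.016 to 0.037 for ephrin-B, 0.041 to 0.077 for Slits, 0.17 to 0.24 for Robos and 0.041 to 0.066 for members as a whole.

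Family medians minus that of all genes moved beyond the spread between arrays as follows. With normexp they were 0.0039 for semaphorins of classes 4 to 7, 0.18 for plexins, 0.12 for neuropilins, 0.075 for EphA and 0.053 for EphB. Without a filter they were 0.15 for class 3 semaphorins, 0.029 for classes 4 to 7, 0.16 for plexins, 0.10 for neuropilins, 0.040 for EphB, 0.055 for ephrin-B, 0.10 for Slits, 0.23 for Robos and 0.10 for members as a whole. With the mean of probes they were 0.079 for class 3, 0.071 for plexins, 0.12 for neuropilins, -0.078 for EphB and 0.053 for ephrin-B, and with 1 probe per accession 0.13 for neuropilins. Signal limits the dim members, Sema3d and Sema3g, whose Sham values are near background. The cause of these shifts was not tested.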
